A study of Mus musculus with 12 samples.

Results

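This comparison set RAW264.7 cells given lipopolysaccharide (LPS) against RAW264.7 cells without it, gene by gene, beyond the classical inflammatory readouts. The LPS group is 4 libraries from cells exposed to LPS at 1 µg/mL for 24 h. The control group is 4 libraries from cells listed with no treatment. These are 8 of the 12 libraries of the series. The other 4 came from cells given ferulic acid at 10 µM for 12 h followed by the same LPS. They entered the filter on low counts, the scaling, the estimate of the spread and the level bins, but no contrast with them is read. RAW264.7 is an established mouse macrophage-like line, used here with no genetic change named in the labels, so the findings describe 1 line and not primary macrophages. The members were all genes that passed a filter on low counts, which kept 14065 of the 25192 genes in the deposited table. The 11127 genes left out held 0.0481% of the reads of the 8 libraries. The labels do not state that a group's 4 libraries are separate cultures, so p-values reflect only variation among the libraries sequenced, possibly technical.

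LPS, a component of the outer membrane of Gram-negative bacteria, binds CD14 and MD-2 and activates Toll-like receptor 4 on macrophages. The receptor signals through MyD88 and TRIF to NF-kB, MAP kinases and interferon regulatory factors. An early wave of cytokine transcription is followed over hours by changes in metabolism, secretion, adhesion and the cell cycle. RNA was selected with oligo-dT beads, and the values are relative: in these bulk libraries, fewer cells that express a gene and less of its RNA per cell cannot be told apart.

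The libraries held 35866432 to 47276784 reads in the LPS group and 34261236 to 48446195 in the control group. The first principal component of log2 CPM over the 8 libraries held 87.0% of the variance and separated the groups. The second held 3.59%, and LPS library 1 scored 54.2 on it, against -21.5 to -16.1 for the other 3 LPS libraries. Without that library 10132 genes were called, against 10384 with it. Of 10 macrophage markers, 9 exceeded 1 CPM on average in both groups, and their summed level was 3280 to 3540 CPM in LPS and 4530 to 5000 CPM in control libraries. Mertk, a receptor for apoptotic cells, was at 0 to 0.0991 CPM in LPS libraries and at 0 in control libraries. Among these markers Adgre1 (F4/80) was at 280 to 375 CPM with LPS and 36.1 to 38.9 CPM in control, while Csf1r, the receptor for the growth factor CSF-1, was at 116 to 134 CPM with LPS and 976 to 1120 CPM in control. Summed markers of B cells, neutrophils, fibroblasts, epithelial and erythroid cells stayed at or below 2.87 CPM in every library. Of the 4 T cell markers in the table only Lck was above 1 CPM, at 31.5 to 35.7 CPM with LPS and 3.15 to 4.10 CPM in control, while Cd3g was at 0 in all 8 libraries. Of 5 dendritic cell markers in the table, Siglech was at 0 in LPS and at 2.24 to 3.63 CPM in control libraries, whereas Zbtb46 was at 1.56 to 2.44 CPM in LPS and at 0.866 to 1.75 CPM in control libraries. Flt3, Xcr1 and Clec9a reached at most 0.494 CPM in any of the 8 libraries.

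Genes named as the 12 largest rises and the 12 largest falls reached a log2 CPM of 3 or more on average over the 8 libraries, had no overlap between groups, and were chosen after setting aside a list of genes already well covered, among them the classical readouts Csf3 and Ptgs2. The promoters of 5 of these genes are shown because they stand at the extremes of that ranking in both directions: the first 3 of the largest rises and the first 2 of the largest falls that have an entry in the RefSeq promoter table of build GRCm38.p6. Each runs 5′ to 3′ on the gene's strand, from 250 bases before to 50 bases after the start of the gene. Capitals mark every match to 15 short motifs searched on both strands.
Saa3: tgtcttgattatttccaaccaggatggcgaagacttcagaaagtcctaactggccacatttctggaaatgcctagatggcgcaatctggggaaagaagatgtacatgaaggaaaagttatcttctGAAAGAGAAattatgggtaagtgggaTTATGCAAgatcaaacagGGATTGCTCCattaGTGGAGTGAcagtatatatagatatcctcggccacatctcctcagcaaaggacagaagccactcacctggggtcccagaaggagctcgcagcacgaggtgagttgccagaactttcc
Ccl3: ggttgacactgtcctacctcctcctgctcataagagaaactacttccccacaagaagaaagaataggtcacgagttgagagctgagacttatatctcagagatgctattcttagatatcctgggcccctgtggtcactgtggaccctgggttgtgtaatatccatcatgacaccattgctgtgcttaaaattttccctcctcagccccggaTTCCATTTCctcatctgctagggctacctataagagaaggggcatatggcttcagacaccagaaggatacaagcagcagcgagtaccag
Hdc: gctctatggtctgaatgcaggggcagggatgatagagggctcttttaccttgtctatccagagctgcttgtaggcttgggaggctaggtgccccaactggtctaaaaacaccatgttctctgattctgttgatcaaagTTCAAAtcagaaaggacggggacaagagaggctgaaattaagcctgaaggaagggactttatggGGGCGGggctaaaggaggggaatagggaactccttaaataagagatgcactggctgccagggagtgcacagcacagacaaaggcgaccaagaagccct
Ranbp3l: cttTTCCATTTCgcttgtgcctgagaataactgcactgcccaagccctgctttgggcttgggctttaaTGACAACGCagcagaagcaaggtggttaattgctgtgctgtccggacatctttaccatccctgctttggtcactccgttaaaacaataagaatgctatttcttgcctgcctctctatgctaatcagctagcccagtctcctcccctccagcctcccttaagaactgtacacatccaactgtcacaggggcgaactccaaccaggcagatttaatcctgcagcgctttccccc
Alox5: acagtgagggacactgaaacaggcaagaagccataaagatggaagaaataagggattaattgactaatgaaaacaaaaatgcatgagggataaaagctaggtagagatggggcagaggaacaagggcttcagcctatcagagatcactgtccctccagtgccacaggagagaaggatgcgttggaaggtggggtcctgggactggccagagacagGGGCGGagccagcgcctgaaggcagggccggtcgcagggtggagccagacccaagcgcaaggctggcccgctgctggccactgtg
The Saa3 promoter (chr7:46715627-46715926, minus strand) held 4 matches. These were an ISRE core, the interferon-stimulated response element (GAAANNGAA), at -125, a C/EBP motif (TTGCNNAA) at -99, an NF-kB motif at -81 and an SRE, the sterol response element (TCACNCCAC), at -67, counted in bases from the start. Of all 32851 promoters in the table, 8.56% held the ISRE core, 10.8% the C/EBP motif, 26.8% the NF-kB motif and 1.24% the SRE. The Ccl3 promoter (chr11:83649329-83649628, minus strand) held an ISRE core at -39. The Hdc promoter (chr2:126618629-126618928, minus strand) held a CHR, the cell cycle homology region (TTTGAA, in 17.9% of all promoters), at -112 and a GC box (GGGCGG, in 35.7%) at -48. The Ranbp3l promoter (chr15:8967699-8967998, plus strand) held an ISRE core at -247 and an ARE, the antioxidant response element (TGACNNNGC, in 12.4%), at -182, and the Alox5 promoter (chr6:116461129-116461428, minus strand) held a GC box at -35. None of the marked matches overlapped another. A match describes these letters only and does not show binding.

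Most genes tested were called different between LPS and control libraries with TMM, the scaling described in the next paragraph. Of the 14065 genes tested with edgeR's quasi-likelihood F test, 5003 (35.6%) were higher with LPS and 5381 (38.3%) lower at a Benjamini-Hochberg adjusted p under 0.05. By at least 2-fold, 3445 genes (24.5%) were higher and 3927 (27.9%) lower. These percentages are the background against which each gene group below is read. Changes of 2- to 4-fold made up 1921 of the genes higher with LPS and 2038 of those lower, and changes of 4- to 16-fold made up 1124 and 1461. At 16- to 64-fold there were 213 genes higher and 237 lower, and at 64-fold or more 187 higher and 191 lower. In 10590 genes (75.3%) the 4 LPS and the 4 control libraries did not overlap.

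How the libraries are put on 1 scale sets the split of directions. TMM, which assumes that most genes do not move together, scaled the LPS libraries by factors of 0.764 to 0.854 and the control libraries by 1.49 to 1.55. Over all genes the median log2 fold change stood at -0.10 with TMM, -0.99 with scaling to library size alone and 0.04 when a trend of expression with gene length was removed from each library on top of TMM. With library size scaling 2467 genes were higher and 8305 lower, so that 22.9% of the calls were rises, against 48.2% with TMM, and 333 genes were called in opposite directions by the 2 scalings. Under all 3 scalings 2350 genes (16.7%) were called higher and 4161 (29.6%) lower. Unless another scaling is named, changes are given against TMM. CPM is a gene's count over its library's size after TMM, means are given ± SD over n = 4 libraries per group, and each adjusted p is from the edgeR test over all 14065 genes. A signed value with an SE beside a gene's name is its log2 fold change, LPS over control.

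**Figure D1:**
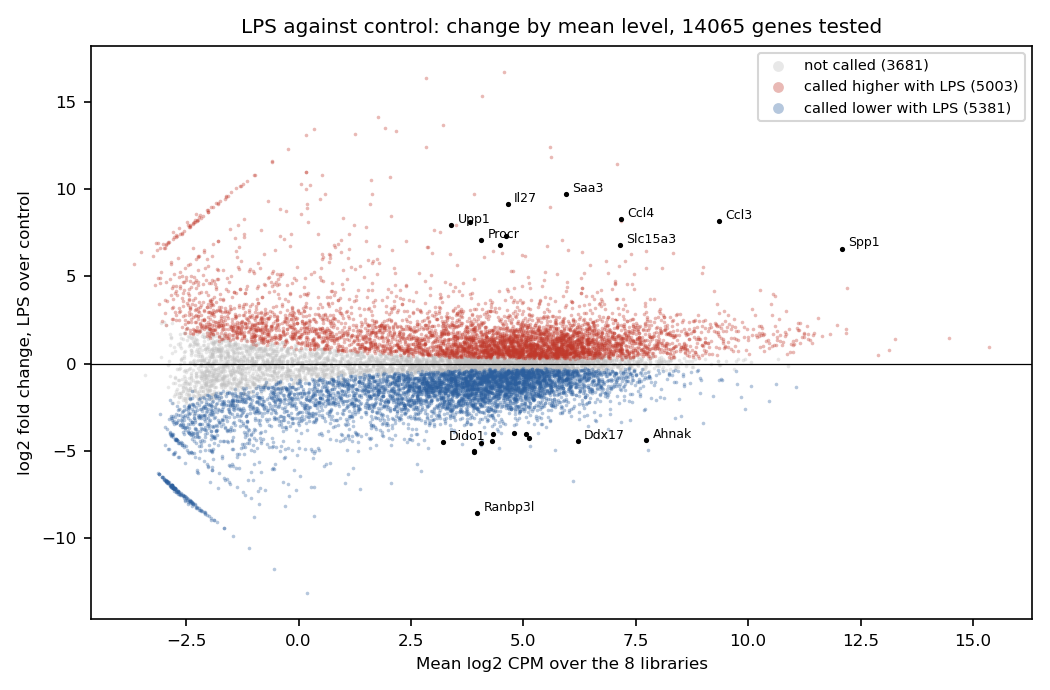
Log2 fold change (LPS over control) against mean log2 CPM over the 8 libraries for the 14065 genes tested, with genes called higher in red, called lower in blue and not called in grey. Black points are the largest rises and falls described in the text, 12 of them labelled, and Spp1 has the highest mean level among them.

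With LPS a small number of genes took a large part of the reads. Genes called higher held 83.98% ± 1.11 of the reads in LPS libraries and 49.7% ± 1.86 in control libraries (SD, n = 4 each), while genes called lower held 7.62% ± 0.579 with LPS and 34.9% ± 1.60 in control. Genes higher by at least 16-fold held 13.6% ± 0.339 of the reads with LPS and 0.520% ± 0.0146 without it. Genes lower by at least 4-fold held 0.739% ± 0.0619 with LPS and 8.94% ± 0.528 in control. Since the calls themselves chose these classes, their shares describe the size of the shift and do not support it. In measures that the calls did not choose, 155.5 ± 17.6 genes held 50% of the reads with LPS, against 616 ± 37.0 genes in control. The number of genes with at least 10 reads was 12878 ± 246 with LPS and 14145 ± 263 in control. Ribosomal protein genes, whose reads can be shared with near-identical pseudogene copies, held 16.002% ± 0.992 with LPS and 8.98% ± 1.08 in control. For each of these 3 measures the exact two-sided permutation test over the 8 libraries gave p = 0.0286, the smallest that 4 against 4 libraries allow, and p = 0.0322 adjusted over 9 measures. Those 9 include the shares of classes that the calls chose, whose separation was largely fixed in advance, so the adjustment is lenient. Mitochondrially encoded genes held 3.71% ± 0.484 with LPS and 4.14% ± 0.258 in control, and the groups overlapped (exact permutation p = 0.2, adjusted p = 0.2).

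**Figure D2:**
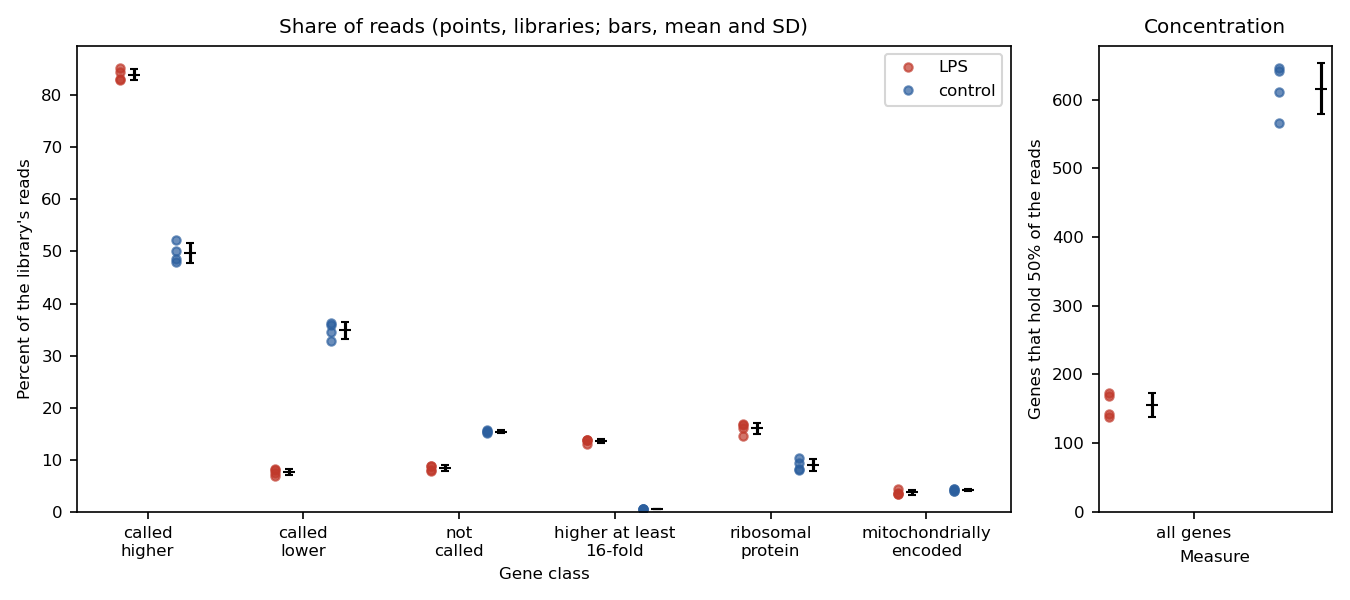
Share of each library's reads (percent, left) in 6 gene classes and the number of genes that hold 50% of the reads (right), for the 4 LPS libraries (red) and 4 control libraries (blue); points are libraries, and black bars the mean and SD. Reads in genes called higher made up 84.0% with LPS and 49.7% in control, and 155.5 genes held 50% of the reads with LPS against 616 in control.

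Among the 12 largest rises were several secreted proteins. Saa3, an acute-phase serum amyloid A protein that macrophages release, had 1604, 1862, 2060.1 and 1652 CPM in the LPS libraries, against 1.60, 2.70, 1.75 and 2.49 CPM in the control libraries (log2 fold change 9.72, SE 0.26, adjusted p = 2.02e-14). Ccl3, a chemokine that attracts monocytes and T cells, had 12328, 10256, 10701 and 10599 CPM in the LPS libraries, against 37.5, 40.2, 37.4 and 39.1 CPM in the control libraries (log2 fold change 8.15, SE 0.18, adjusted p = 5.07e-15). Ccl4, a closely related chemokine, had 2943, 2421, 2306 and 2424 CPM in the LPS libraries, against 7.45, 10.3, 8.02 and 7.08 CPM in the control libraries (log2 fold change 8.26, SE 0.25, adjusted p = 6.52e-14). For each of the 3 genes every LPS library stood far above every control library, and for Ccl3 the 4 control values lay close together. Il27, the p28 subunit of interleukin-27, had 726, 584, 546 and 506 CPM in the LPS libraries, against 0.877, 1.23, 0.785 and 1.36 CPM in the control libraries (log2 fold change 9.13, SE 0.26, adjusted p = 2.88e-14). Spp1, the secreted matrix glycoprotein osteopontin, had 41824, 50243, 41238 and 38491 CPM in the LPS libraries, against 402, 447, 455 and 474 CPM in the control libraries (log2 fold change 6.59, SE 0.23, adjusted p = 2.42e-13). In both of these genes too, all 4 LPS libraries stood far above the control libraries.

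Further large rises concerned enzymes, a receptor and a transporter. Hdc, histidine decarboxylase, which makes histamine, had 233, 205, 233 and 234 CPM in the LPS libraries, against 0.877, 0.672, 0.853 and 0.904 CPM in the control libraries (log2 fold change 8.09, SE 0.21, adjusted p = 1.82e-14). Upp1, uridine phosphorylase, which splits uridine into uracil and a ribose phosphate, had 162, 155, 164 and 163 CPM in the LPS libraries, against 0.688, 0.970, 0.551 and 0.452 CPM in the control libraries (log2 fold change 7.92, SE 0.22, adjusted p = 2.83e-14). Both were under 1 CPM in every control library, from 197 reads for Hdc and 156 for Upp1 over the group, so their folds rest on few control reads. Procr, the receptor for protein C, averaged 193 ± 23.4 CPM in LPS and 1.42 ± 0.106 CPM in control libraries (log2 fold change 7.09, SE 0.19, adjusted p = 2.02e-14). Slc15a3, a lysosomal carrier of histidine and small peptides, averaged 1514 ± 119.6 CPM in LPS and 13.4 ± 1.09 CPM in control libraries (log2 fold change 6.82, SE 0.20, adjusted p = 2.96e-14). Ercc1, a subunit of the endonuclease of nucleotide excision repair, averaged 308 ± 49.1 CPM in LPS and 1.92 ± 0.148 CPM in control libraries (log2 fold change 7.32, SE 0.21, adjusted p = 2.88e-14). Isg15, an interferon-induced ubiquitin-like modifier, averaged 244 ± 16.8 CPM in LPS and 2.18 ± 0.993 CPM in control libraries (log2 fold change 6.80, SE 0.29, adjusted p = 3.22e-12). Groups did not overlap for any of these genes.

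The falls named by the same rule covered endosomal, lipid mediator, scaffold and nuclear genes. The largest of the 12 was that of Ranbp3l, a Ran-binding protein, with 0.689, 1.39, 0.669 and 0.521 CPM in the LPS libraries, against 286, 292, 307 and 343 CPM in the control libraries (log2 fold change -8.58, SE 0.31, adjusted p = 4.67e-13). Its level was low in all 4 LPS libraries, and the next falls by size were smaller. Rab7b, a GTPase of late endosomes that promotes the degradation of Toll-like receptor 4, had 2.29, 2.37, 2.21 and 3.46 CPM in the LPS libraries, against 94.3, 73.6, 88.3 and 93.6 CPM in the control libraries (log2 fold change -5.08, SE 0.34, adjusted p = 1.02e-09). Alox5, which encodes 5-lipoxygenase, the first enzyme of leukotriene synthesis, had 1.71, 4.04, 3.07 and 5.37 CPM in the LPS libraries, against 93.96, 81.3, 86.9 and 74.3 CPM in the control libraries (log2 fold change -4.56, SE 0.39, adjusted p = 2.45e-08). All 4 LPS libraries lay far below the control libraries. Gpr183, a receptor for oxysterols that guides cell migration, had 4.10, 4.11, 6.15 and 5.37 CPM in the LPS libraries, against 83.5, 79.6, 82.4 and 81.8 CPM in the control libraries (log2 fold change -4.05, SE 0.21, adjusted p = 3.78e-11). Ahnak, a very large scaffold protein under the plasma membrane, had 40.3, 42.2, 47.9 and 57.1 CPM in the LPS libraries, against 1082, 829, 1012 and 1003 CPM in the control libraries (log2 fold change -4.39, SE 0.16, adjusted p = 5.74e-13). Ddx17, a DEAD-box RNA helicase, had 10.99, 15.6, 18.1 and 19.8 CPM in the LPS libraries, against 360.2, 338, 353 and 344 CPM in the control libraries (log2 fold change -4.43, SE 0.27, adjusted p = 3.69e-10). In each of these genes the highest LPS library stayed below the lowest control library.

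The remaining 6 of the 12 largest falls had log2 fold changes of -5.00 to -4.01. Shtn1, shootin 1, known from axon outgrowth, averaged 2.63 ± 0.331 CPM in LPS and 83.9 ± 8.61 CPM in control libraries. Dido1, a PHD finger protein of chromatin, averaged 1.93 ± 0.528 CPM in LPS and 44.2 ± 2.76 CPM in control libraries. Gabpb2, a partner subunit of the ETS factor GABP, averaged 4.25 ± 1.09 CPM in LPS and 93.4 ± 8.55 CPM in control libraries. These 3 genes lay at a few CPM with LPS. Selenbp1, a selenium-binding protein that oxidises methanethiol, averaged 7.92 ± 0.502 CPM in LPS and 154 ± 16.03 CPM in control libraries. Rin2, an exchange factor for the endosomal GTPase Rab5, averaged 8.19 ± 1.31 CPM in LPS and 135 ± 11.7 CPM in control libraries. Igfbp4, a binding protein of insulin-like growth factors, averaged 6.86 ± 0.986 CPM in LPS and 110.5 ± 7.64 CPM in control libraries. The adjusted p-values of the 6 genes ran from 3.89e-13 to 2.12e-09 by edgeR's test.

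**Figure D3:**
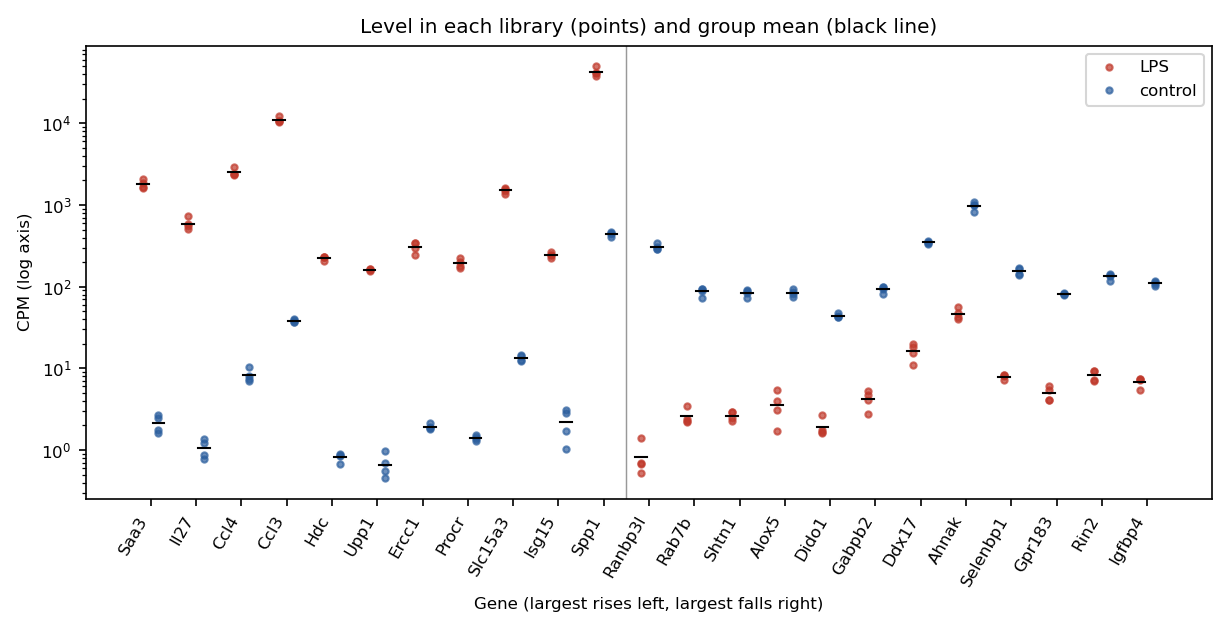
Level in CPM (log axis) of the largest rises (left of the line) and largest falls (right) described in the text in each LPS library (red) and control library (blue), with the group means as black lines. In every gene shown the 4 LPS and 4 control libraries are separate, from Saa3 with means of 1795 CPM with LPS and 2.13 CPM in control to Igfbp4 with 6.86 CPM with LPS and 110.5 CPM in control.

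Ranked by CPM gained instead of by fold, the list was led by Spp1, Rn18s-rs5 and mt-Co1. Fth1, the ferritin heavy chain that stores iron, had 20237, 19008, 21407 and 23589 CPM in the LPS libraries, against 1012, 1129.8, 1068 and 1024 CPM in the control libraries (log2 fold change 4.31, SE 0.17, adjusted p = 1.78e-12). Eef2, the elongation factor that moves the ribosome along mRNA, averaged 16087 ± 1911 CPM in LPS and 6176 ± 669 CPM in control libraries (log2 fold change 1.38, SE 0.17, adjusted p = 1.64e-06). Rps3 and Rps14, proteins of the small ribosomal subunit, had log2 fold changes of 1.97 (SE 0.27) and 2.18 (SE 0.33), and both have near-identical copies elsewhere in the genome, so their counts are uncertain. Rn18s-rs5, an 18S ribosomal RNA sequence, averaged 60104 ± 18294 CPM in LPS and 30889 ± 4803 CPM in control libraries in these oligo-dT libraries, and its log2 fold change was 0.96 (SE 0.21) with TMM and 0.04 with library size scaling (adjusted p = 0.839, not called). Losses in CPM were led by mitochondrial mRNAs, taken up next, and by Lyz2, Serinc3 and Fxyd2. Lyz2, lysozyme, had 395, 400.2, 424 and 361 CPM in the LPS libraries, against 2301, 2666, 2365 and 2317 CPM in the control libraries (log2 fold change -2.61, SE 0.14, adjusted p = 6.57e-11). Serinc3, a multipass membrane protein, averaged 156 ± 13.02 CPM in LPS and 1670.4 ± 107 CPM in control libraries (log2 fold change -3.42, SE 0.16, adjusted p = 1.5e-11). Fxyd2, the gamma subunit of the sodium pump, averaged 692 ± 92.5 CPM in LPS and 1658 ± 99.1 CPM in control libraries (log2 fold change -1.26, SE 0.14, adjusted p = 5.68e-07).

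Counts of mitochondrial mRNAs, all cut from the same long transcripts of the mitochondrial genome apart from mt-Nd6 on the other strand, did not move together. This set of 13 was looked at after its leading genes had been seen. Levels within it lay far apart: in LPS libraries mt-Co1 averaged 37640 CPM, mt-Co2 23.58 CPM and mt-Nd3 0.466 CPM. In control libraries the same genes averaged 13770, 31.8 and 1.85 CPM. Whether reads of some members were lost to near-identical copies was not tested, so these counts are uncertain. With TMM mt-Co1 was called higher, 7 of 13 lower and 5 were not called, and with library size scaling 1 was higher and 9 lower. mt-Co1, subunit 1 of cytochrome oxidase, had 38402, 45827, 33873 and 32446 CPM in the LPS libraries, against 12411, 15531, 14329.7 and 12821 CPM in the control libraries (log2 fold change 1.45, SE 0.19, adjusted p = 3.18e-06). mt-Nd1, a subunit of complex I, had 760.1, 799, 543 and 618 CPM in the LPS libraries, against 2804, 3076, 3385 and 2678 CPM in the control libraries (log2 fold change -2.13, SE 0.27, adjusted p = 2.03e-06). mt-Cytb, the cytochrome b of complex III, averaged 1348 ± 230.3 CPM in LPS and 3407 ± 254 CPM in control libraries (log2 fold change -1.337, SE 0.22, adjusted p = 4.07e-05). Library size scaling lowered the log2 fold change of all 13, so only values above 0 could change sign. With it mt-Co1 stayed above 0, at 0.55, while mt-Nd1 was at -3.04 and mt-Cytb at -2.24.

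Genes often used as qPCR references were mostly called. Of the 18 members tested out of 18 listed, 13 (72.2%) were called higher and 4 (22.2%) lower. Here the median log2 fold change was 1.04 with TMM, 0.15 with library size scaling and 0.99 with the length trend removed. Gapdh, the glycolytic enzyme, averaged 139 ± 36.5 CPM in LPS and 16.1 ± 4.71 CPM in control libraries (log2 fold change 3.11, SE 0.31, adjusted p = 1.47e-07), but it has many near-identical pseudogene copies and its count is uncertain. B2m, the light chain of MHC class I, averaged 2674 ± 538 CPM in LPS and 590.1 ± 54.5 CPM in control libraries (log2 fold change 2.18, SE 0.22, adjusted p = 1.56e-07). On the falling side Polr2a, the largest subunit of RNA polymerase II, averaged 96.1 ± 21.05 CPM in LPS and 239 ± 24.8 CPM in control libraries (log2 fold change -1.31, SE 0.20, adjusted p = 2.14e-05). Sdha (-1.28, SE 0.14), Ywhaz (-0.80, SE 0.12) and Tbp (-0.80, SE 0.17) were the other 3 that fell, and Tbp alone of the 4 changed sign, to 0.32 (adjusted p = 0.119), with the length trend removed. The rises of Actb (0.57, SE 0.12), Hprt (0.75, SE 0.19) and Eef1a1 (0.78, SE 0.18) turned to -0.33, -0.15 and -0.12 with library size scaling, and that of Hprt was also not called with the length trend removed (0.12, adjusted p = 0.508). Among the other called references, Rplp0 (1.70, SE 0.16), Rps18 (1.73, SE 0.16), Rpl13a (2.03, SE 0.16), Ppia (1.35, SE 0.36), Tfrc (1.37, SE 0.25) and Pgk1 (1.08, SE 0.15) kept a positive sign with library size scaling, though Ppia, Tfrc and Pgk1 were then not called. Gusb, a lysosomal glucuronidase, was the only one of the 18 not called, at 299 ± 32.3 CPM in LPS and 265 ± 9.80 CPM in control libraries (log2 fold change 0.17, SE 0.17, adjusted p = 0.356), and it was called lower (-0.72) with library size scaling and higher (0.44) with the length trend removed.

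Some genes were near constant on the TMM scale. Among genes not called whose log2 CPM averaged 7 or more, the 6 with the tightest bounds around no change were Skap2, Sdhd, Kcnab2, Ipo5, Rtn4 and Set. Ipo5, an importin, had 209, 231, 251 and 214 CPM in the LPS libraries, against 230.2, 218, 222 and 237 CPM in the control libraries (log2 fold change -0.002, SE 0.14, adjusted p = 0.992). Sdhd, the membrane anchor of succinate dehydrogenase, averaged 161 ± 8.78 CPM in LPS and 164 ± 11.51 CPM in control libraries (log2 fold change -0.03, SE 0.12, adjusted p = 0.835). None of the 6 was constant on every scale: with library size scaling all 6 were called lower, with log2 fold changes of -0.93 to -0.90.

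Genes of secreted and extracellular proteins were next described by role. Growth and differentiation factors act on neighbouring cells. Among 15 tested of 30 listed members, 7 (46.7%) were called higher and 5 (33.3%) lower. The list had a median log2 fold change of 0.18 with TMM, -0.72 with library size scaling and 0.49 with the length trend removed. By at least 2-fold, 7 members were higher and 4 lower, and log2 fold changes ran from -3.88 to 9.54. Members named here are limited to those with a log2 CPM of 3 or more on average, so larger changes are not named. Pdgfb, a chain of platelet-derived growth factor, had 189, 150.02, 145 and 161 CPM in the LPS libraries, against 8.91, 6.94, 7.82 and 7.74 CPM in the control libraries (log2 fold change 4.36, SE 0.14, adjusted p = 1.49e-13). Tgfb1 averaged 604 ± 81.4 CPM in LPS and 98.6 ± 8.61 CPM in control libraries (log2 fold change 2.62, SE 0.15, adjusted p = 2.26e-10) and Pdgfa averaged 27.4 ± 2.21 CPM in LPS and 4.81 ± 0.466 CPM in control libraries (log2 fold change 2.51, SE 0.14, adjusted p = 1.2e-10), whereas Vegfb was lower at 24.2 ± 1.83 CPM in LPS and 35.6 ± 2.59 CPM in control libraries (log2 fold change -0.56, SE 0.15, adjusted p = 0.00287). Extracellular matrix proteins and their receptors showed the highest median of the 32 lists. The test covered 20 of 34 listed members, and 14 (70%) were called higher and 1 (5%) lower. With TMM the median log2 fold change was 1.78, with library size scaling 0.89 and with the length trend removed 1.70. Beside Spp1, the largest rise among members with a log2 CPM of 3 or more on average was that of Lgals9, the secreted lectin galectin-9, with 327, 308, 299 and 322 CPM in the LPS libraries, against 20.5, 19.03, 18.3 and 18.02 CPM in the control libraries (log2 fold change 4.05, SE 0.14, adjusted p = 2.76e-13). Lamc1, a laminin chain, averaged 261 ± 35.01 CPM in LPS and 30.6 ± 2.12 CPM in control libraries (log2 fold change 3.10, SE 0.20, adjusted p = 9.06e-10). The 1 member that fell was Dag1, the laminin receptor dystroglycan, at 18.5 ± 4.86 CPM in LPS and 76.1 ± 5.20 CPM in control libraries (log2 fold change -2.04, SE 0.26, adjusted p = 2.44e-06), and under all 3 scalings the list had 13 higher and 1 lower. Serpins and cystatins inhibit proteases, and cathepsins are lysosomal proteases. Out of 31 listed members 24 were tested, of which 13 (54.2%) were called higher and 10 (41.7%) lower. For these members the median log2 fold change was 0.70 (TMM), -0.20 (library size scaling) and 0.81 (length trend removed). Ctsd, cathepsin D, averaged 1381 ± 136 CPM in LPS and 275 ± 24.7 CPM in control libraries (log2 fold change 2.33, SE 0.17, adjusted p = 2.79e-09). Serpinb8 averaged 2.81 ± 0.537 CPM in LPS and 42.3 ± 4.28 CPM in control libraries (log2 fold change -3.91, SE 0.21, adjusted p = 7.11e-11), and Ctsf, cathepsin F, averaged 11.8 ± 1.67 CPM in LPS and 79.2 ± 5.26 CPM in control libraries (log2 fold change -2.75, SE 0.17, adjusted p = 3.04e-10). Cst7, which encodes cystatin F, averaged 4.93 ± 1.20 CPM in LPS and 30.7 ± 0.835 CPM in control libraries (log2 fold change -2.64, SE 0.32, adjusted p = 1.27e-06), so inhibitors and proteases stood on both sides.

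At the cell surface, tetraspanins and glycoproteins had a larger share of rises than all genes tested. With 29 of 35 members tested, 18 (62.1%) were called higher and 5 (17.2%) lower. Under TMM, library size scaling and removal of the length trend, the median log2 fold change was 1.55, 0.65 and 1.26. Clec4e, the lectin Mincle that senses mycobacterial glycolipids, had 329, 426, 366 and 306 CPM in the LPS libraries, against 15.4, 18.02, 17.99 and 18.9 CPM in the control libraries (log2 fold change 4.34, SE 0.24, adjusted p = 8.4e-11). Cd53, a leukocyte tetraspanin, averaged 1998 ± 302 CPM in LPS and 250.1 ± 25.7 CPM in control libraries (log2 fold change 2.998, SE 0.21, adjusted p = 1.56e-09), and Cd44, the hyaluronan receptor, averaged 409 ± 12.1 CPM in LPS and 70.6 ± 5.13 CPM in control libraries (log2 fold change 2.53, SE 0.12, adjusted p = 2.05e-11). In the other direction, Tspan14, a tetraspanin that binds ADAM10, averaged 7.17 ± 1.95 CPM in LPS and 56.3 ± 2.36 CPM in control libraries (log2 fold change -2.97, SE 0.19, adjusted p = 6.46e-10). Gpnmb, a glycoprotein of lipid-laden macrophages, had 114, 164, 142 and 288 CPM in the LPS libraries, against 742, 670.1, 796 and 748 CPM in the control libraries (log2 fold change -2.06, SE 0.27, adjusted p = 2.71e-06), with LPS library 4 the highest of its group. Cd180, a Toll-like receptor homologue, averaged 28.4 ± 3.49 CPM in LPS and 80.9 ± 7.55 CPM in control libraries (log2 fold change -1.51, SE 0.14, adjusted p = 4.71e-08). G-protein-coupled receptors for nucleotides, lipids and metabolites had shares near the background. Tests were possible for 22 of 33 members, and 9 (40.9%) were called higher and 9 (40.9%) lower. Taking the median over the list, the log2 fold change was 0.09 with TMM, -0.81 with library size scaling and 0.46 with the length trend removed. The falls of Gpr183, above, and of Gpr132 (-1.82, SE 0.19) held under all 3 scalings, whereas the rise of the prostacyclin receptor Ptgir (1.33, SE 0.16) was not called with library size scaling, and that of the UDP receptor P2ry6 (0.83, SE 0.12) turned to -0.0707.

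Ion channels had a larger share of rises and a smaller share of falls than all genes tested with TMM. Of the 34 members tested out of 37 listed, 15 (44.1%) were called higher and 11 (32.4%) lower. Here the median log2 fold change was 0.16 with TMM, -0.74 with library size scaling and 0.85 with the length trend removed. Trpm4, a cation channel opened by calcium, had 60.7, 68.2, 45.9 and 60.2 CPM in the LPS libraries, against 4.78, 5.50, 6.22 and 4.76 CPM in the control libraries (log2 fold change 3.46, SE 0.20, adjusted p = 1.36e-10), and Mcoln2, a channel of recycling endosomes, averaged 55.5 ± 7.83 CPM in LPS and 6.96 ± 1.18 CPM in control libraries (log2 fold change 2.997, SE 0.16, adjusted p = 6.87e-11). Trpm7, a channel fused to a kinase, had 8.78, 7.20, 5.77 and 5.18 CPM in the LPS libraries, against 67.7, 50.3, 63.8 and 74.7 CPM in the control libraries (log2 fold change -3.26, SE 0.20, adjusted p = 3.63e-10). P2rx7, the ATP-gated channel, and Kcnk6, a potassium channel, fell as well, at 6.95 ± 0.298 CPM in LPS and 29.7 ± 2.09 CPM in control libraries (log2 fold change -2.09, SE 0.14, adjusted p = 1.51e-09) and 4.13 ± 0.853 CPM in LPS and 25.8 ± 2.53 CPM in control libraries (log2 fold change -2.65, SE 0.28, adjusted p = 2.8e-07). Axon guidance ligands and receptors, which leukocytes also use, had a larger share of falls than all genes tested. Among 17 tested of 32 listed members, 4 (23.5%) were called higher and 10 (58.8%) lower. The list had a median log2 fold change of -1.15 with TMM, -2.05 with library size scaling and -0.55 with the length trend removed. Plxnc1, a semaphorin receptor, averaged 5.67 ± 1.37 CPM in LPS and 42.1 ± 3.01 CPM in control libraries (log2 fold change -2.89, SE 0.19, adjusted p = 9.12e-10), and the semaphorins moved both ways, Sema4c at 1.54 (SE 0.15) and Sema4b and Sema4d at -1.77 (SE 0.19) and -1.73 (SE 0.26). Components of Notch, Wnt and Hippo signalling likewise had a larger share of falls. The test covered 22 of 32 listed members, and 6 (27.3%) were called higher and 14 (63.6%) lower. With TMM the median log2 fold change was -0.65, with library size scaling -1.54 and with the length trend removed 0.06. Ctnnb1, which encodes beta-catenin, had 18.5, 22.9, 22.1 and 23.7 CPM in the LPS libraries, against 151, 146, 150.3 and 166 CPM in the control libraries (log2 fold change -2.81, SE 0.16, adjusted p = 1e-10). Lrp6, the Wnt coreceptor, averaged 6.32 ± 0.768 CPM in LPS and 32.7 ± 2.08 CPM in control libraries (log2 fold change -2.37, SE 0.21, adjusted p = 3.75e-08) and Adam10, the protease that sheds Notch, averaged 21.9 ± 4.55 CPM in LPS and 119.8 ± 11.9 CPM in control libraries (log2 fold change -2.45, SE 0.23, adjusted p = 6.71e-08). The ligand Wnt6 rose, at 34.4 ± 7.76 CPM in LPS and 5.59 ± 0.551 CPM in control libraries (log2 fold change 2.62, SE 0.20, adjusted p = 7.17e-09).

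Inside the cell, inducible kinases had a larger share of rises than all genes tested. Out of 37 listed members 34 were tested, of which 20 (58.8%) were called higher and 9 (26.5%) lower. For these members the median log2 fold change was 0.72 (TMM), -0.17 (library size scaling) and 0.99 (length trend removed). Plk3, a stress-induced polo-like kinase, had 219, 171, 159 and 193 CPM in the LPS libraries, against 2.44, 2.35, 1.76 and 2.05 CPM in the control libraries (log2 fold change 6.43, SE 0.19, adjusted p = 3.16e-14), and Pim2, a survival kinase controlled mainly by its level, averaged 91.9 ± 10.3 CPM in LPS and 7.98 ± 0.626 CPM in control libraries (log2 fold change 3.52, SE 0.14, adjusted p = 1.61e-12). Kinases of lipid and receptor signalling fell, among them Pik3cg, the phosphoinositide 3-kinase of chemoattractant receptors, at 10.9 ± 1.72 CPM in LPS and 72.7 ± 7.08 CPM in control libraries (log2 fold change -2.74, SE 0.20, adjusted p = 3.71e-09). Btk, a Tec family kinase, averaged 14.7 ± 2.89 CPM in LPS and 60.3 ± 4.98 CPM in control libraries (log2 fold change -2.03, SE 0.24, adjusted p = 7.91e-07) and Sgk3 averaged 8.72 ± 1.64 CPM in LPS and 57.7 ± 4.52 CPM in control libraries (log2 fold change -2.73, SE 0.17, adjusted p = 4.48e-10). Genes of cyclic AMP synthesis, breakdown and response had shares near the background. With 28 of 33 members tested, 10 (35.7%) were called higher and 11 (39.3%) lower. Under TMM, library size scaling and removal of the length trend, the median log2 fold change was -0.15, -1.05 and 0.41. Pde4a, a phosphodiesterase that degrades cyclic AMP, averaged 4.07 ± 0.948 CPM in LPS and 26.9 ± 1.29 CPM in control libraries (log2 fold change -2.72, SE 0.22, adjusted p = 1.24e-08), and Adcy7, an adenylate cyclase that makes it, averaged 48.2 ± 3.32 CPM in LPS and 138 ± 10.6 CPM in control libraries (log2 fold change -1.51, SE 0.14, adjusted p = 6.43e-08). Enzymes of both synthesis and breakdown were thus among the falls, and so was Prkacb, a catalytic subunit of protein kinase A (-1.35, SE 0.15). Sik3, a salt-inducible kinase (2.15, SE 0.23), and Crtc2, the CREB coactivator it phosphorylates (1.92, SE 0.14), rose, and the rise of the CREB family member Crem (0.98, SE 0.20) was not called with library size scaling.

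Phosphoinositide and phospholipase enzymes make and cleave membrane lipid signals. Tests were possible for 32 of 35 members, and 11 (34.4%) were called higher and 14 (43.8%) lower. Taking the median over the list, the log2 fold change was -0.18 with TMM, -1.07 with library size scaling and 0.34 with the length trend removed. Pld3, an endolysosomal nuclease of the phospholipase D family, had 937, 786, 701 and 821 CPM in the LPS libraries, against 66.2, 58.1, 65.8 and 61.04 CPM in the control libraries (log2 fold change 3.69, SE 0.15, adjusted p = 2.95e-12). Pla2g5, a secreted phospholipase, averaged 333 ± 28.8 CPM in LPS and 34.1 ± 2.28 CPM in control libraries (log2 fold change 3.29, SE 0.14, adjusted p = 3.22e-12). Pik3c3, the class III phosphoinositide 3-kinase of endosomes and autophagy, had 3.52, 5.71, 3.92 and 4.22 CPM in the LPS libraries, against 50.1, 41.95, 47.2 and 50.3 CPM in the control libraries (log2 fold change -3.45, SE 0.19, adjusted p = 1.13e-10). Among the other falls were Pip5k1c (-2.51, SE 0.22) and Plcb2 (-1.72, SE 0.23), and among the rises Lpcat2 (1.95, SE 0.14), which makes platelet-activating factor.

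Actin and myosin proteins had a larger share of rises than all genes with TMM. Of the 42 members tested out of 44 listed, 23 (54.8%) were called higher and 9 (21.4%) lower. Here the median log2 fold change was 0.55 with TMM, -0.35 with library size scaling and 1.08 with the length trend removed. Small actin regulators rose: Marcksl1 had 1253, 1003, 979 and 945 CPM in the LPS libraries, against 30.6, 32.8, 29.1 and 27.3 CPM in the control libraries (log2 fold change 5.12, SE 0.16, adjusted p = 1.02e-13), and Tmsb10, a thymosin that holds actin monomers, averaged 964 ± 67.8 CPM in LPS and 133 ± 12.3 CPM in control libraries (log2 fold change 2.86, SE 0.13, adjusted p = 1.27e-11). Coro1a, a leukocyte coronin, averaged 3965 ± 781 CPM in LPS and 573 ± 89.4 CPM in control libraries (log2 fold change 2.79, SE 0.25, adjusted p = 3.94e-08). Gsn, the actin-severing protein gelsolin, had 27.2, 33.2, 26.8 and 43.6 CPM in the LPS libraries, against 431, 449, 456 and 407 CPM in the control libraries (log2 fold change -3.73, SE 0.21, adjusted p = 1.51e-10), and the myosins Myo1f (-2.61, SE 0.29) and Myo5a (-2.51, SE 0.20) fell. Tubulins and microtubule proteins had shares near the background. Among 29 tested of 30 listed members, 10 (34.5%) were called higher and 12 (41.4%) lower. The list had a median log2 fold change of -0.10 with TMM, -0.99 with library size scaling and 0.46 with the length trend removed. Tubb2b (3.73, SE 0.20), Tuba1a (2.32, SE 0.17) and Tubb6 (1.70, SE 0.12), tubulin genes with related copies, rose. Stmn1, a microtubule destabiliser of dividing cells, averaged 22.8 ± 1.62 CPM in LPS and 119 ± 5.87 CPM in control libraries (log2 fold change -2.38, SE 0.14, adjusted p = 1.62e-10). Dync1h1, the heavy chain of dynein, averaged 103 ± 26.1 CPM in LPS and 374 ± 54.3 CPM in control libraries (log2 fold change -1.86, SE 0.24, adjusted p = 2.63e-06), and the fall of Clasp1 (-1.70, SE 0.20) was not called with the length trend removed (-0.24, adjusted p = 0.226). Genes of membrane fusion and secretion were near the background on the falling side. The test covered 37 of 40 listed members, and 17 (45.9%) were called higher and 14 (37.8%) lower. With TMM the median log2 fold change was 0.23, with library size scaling -0.66 and with the length trend removed 0.39. Rab20, a GTPase of phagosomes, had 53.4, 56.9, 51.5 and 61.6 CPM in the LPS libraries, against 3.10, 4.46, 3.34 and 3.24 CPM in the control libraries (log2 fold change 3.98, SE 0.17, adjusted p = 3.42e-12). Sec61g, a subunit of the endoplasmic reticulum translocon, averaged 363 ± 60.5 CPM in LPS and 34.4 ± 6.84 CPM in control libraries (log2 fold change 3.40, SE 0.35, adjusted p = 1.85e-07), and Vti1b, an endosomal SNARE, averaged 129 ± 10.3 CPM in LPS and 33.7 ± 3.06 CPM in control libraries (log2 fold change 1.93, SE 0.18, adjusted p = 6.03e-08). Vamp2, a SNARE of secretory vesicles, averaged 3.79 ± 0.227 CPM in LPS and 19.9 ± 0.595 CPM in control libraries (log2 fold change -2.39, SE 0.16, adjusted p = 1.55e-09), with smaller falls of Stxbp3 (-1.05, SE 0.23) and Rab32 (-1.01, SE 0.15).

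Metabolic lists leaned in different directions. Glucose, monocarboxylate and nucleoside transporters had a larger share of falls than all genes. Out of 28 listed members 27 were tested, of which 7 (25.9%) were called higher and 14 (51.9%) lower. For these members the median log2 fold change was -0.46 (TMM), -1.36 (library size scaling) and -0.21 (length trend removed). Slc2a1, the glucose transporter GLUT1, nevertheless had 683, 594, 639.8 and 646 CPM in the LPS libraries, against 115, 112, 119 and 103 CPM in the control libraries (log2 fold change 2.52, SE 0.13, adjusted p = 4.52e-11), and Slc25a1, the mitochondrial citrate carrier, averaged 236 ± 39.1 CPM in LPS and 79.5 ± 5.43 CPM in control libraries (log2 fold change 1.57, SE 0.16, adjusted p = 1.17e-07). Slc5a3, which imports myo-inositol, had 7.58, 11.4, 9.99 and 11.6 CPM in the LPS libraries, against 169.8, 146, 151 and 181 CPM in the control libraries (log2 fold change -3.99, SE 0.17, adjusted p = 3.92e-12). Slc29a3, a lysosomal nucleoside carrier, averaged 5.77 ± 1.05 CPM in LPS and 20.4 ± 0.402 CPM in control libraries (log2 fold change -1.82, SE 0.21, adjusted p = 8.43e-07). Pentose phosphate, serine and folate enzymes supply NADPH and carbon units. With 23 of 26 members tested, 12 (52.2%) were called higher and 8 (34.8%) lower. Under TMM, library size scaling and removal of the length trend, the median log2 fold change was 0.38, -0.52 and 0.35. Psph, the last enzyme of serine synthesis, averaged 246 ± 20.05 CPM in LPS and 54.8 ± 5.39 CPM in control libraries (log2 fold change 2.17, SE 0.13, adjusted p = 3.17e-10). Aldh1l2, a mitochondrial folate enzyme (1.67, SE 0.20), and Pgls, of the pentose phosphate pathway (1.59, SE 0.29), rose too. Mtr, methionine synthase, averaged 12.4 ± 1.63 CPM in LPS and 55.5 ± 2.45 CPM in control libraries (log2 fold change -2.16, SE 0.20, adjusted p = 4.82e-08), and the cytosolic folate enzyme Shmt1 (-2.12, SE 0.22) and the phosphoribosyl pyrophosphate synthetase Prps2 (-1.98, SE 0.16) fell. Nucleotide and NAD metabolism genes also had a larger share of falls. Tests were possible for 32 of 37 members, and 7 (21.9%) were called higher and 17 (53.1%) lower. Taking the median over the list, the log2 fold change was -0.60 with TMM, -1.49 with library size scaling and -0.44 with the length trend removed. Beside Upp1, the enzymes Impdh1 of guanine nucleotide synthesis (1.74, SE 0.14) and Pnp of purine salvage (1.57, SE 0.15) rose. Cad, the multifunctional starter of pyrimidine synthesis, averaged 66.8 ± 4.23 CPM in LPS and 165 ± 15.4 CPM in control libraries (log2 fold change -1.31, SE 0.14, adjusted p = 3.53e-07), and Dck, deoxycytidine kinase, averaged 23.9 ± 2.15 CPM in LPS and 59.9 ± 4.74 CPM in control libraries (log2 fold change -1.33, SE 0.14, adjusted p = 1.81e-07). Parp14, an ADP-ribosyltransferase, averaged 15.95 ± 1.73 CPM in LPS and 41.6 ± 8.19 CPM in control libraries (log2 fold change -1.38, SE 0.20, adjusted p = 9.91e-06).

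Lipid and glycan genes were split. Lipid droplet and triglyceride genes leaned to the higher side with TMM. Of the 28 members tested out of 32 listed, 14 (50%) were called higher and 9 (32.1%) lower. Here the median log2 fold change was 0.40 with TMM, -0.50 with library size scaling and 0.42 with the length trend removed. Hilpda, a droplet protein that inhibits triglyceride lipase, averaged 67.1 ± 3.59 CPM in LPS and 10.1 ± 2.41 CPM in control libraries (log2 fold change 2.73, SE 0.19, adjusted p = 1.24e-09). Lpl, lipoprotein lipase, had 529.9, 562, 508 and 407 CPM in the LPS libraries, against 129, 107, 118 and 133 CPM in the control libraries (log2 fold change 2.04, SE 0.18, adjusted p = 2.52e-08), and Agpat4, an acyltransferase, averaged 103 ± 11.98 CPM in LPS and 16.6 ± 3.14 CPM in control libraries (log2 fold change 2.64, SE 0.18, adjusted p = 1.42e-09). The phosphatidate phosphatases Lpin1 (-2.98, SE 0.23) and Lpin2 (-1.84, SE 0.16) and the lysosomal acid lipase Lipa (-1.338, SE 0.17) fell. Sphingolipid enzymes had a larger share of falls than the background. Among 25 tested of 30 listed members, 7 (28%) were called higher and 13 (52%) lower. The list had a median log2 fold change of -0.51 with TMM, -1.39 with library size scaling and -0.17 with the length trend removed. Cerk, ceramide kinase, had 13.2, 10.1, 14.1 and 18.2 CPM in the LPS libraries, against 113, 106, 111 and 111 CPM in the control libraries (log2 fold change -2.99, SE 0.23, adjusted p = 7.69e-09). Kdsr, an early enzyme of ceramide synthesis, averaged 4.34 ± 1.09 CPM in LPS and 29.6 ± 0.655 CPM in control libraries (log2 fold change -2.77, SE 0.29, adjusted p = 2.83e-07), and Sgpp1, a sphingosine phosphate phosphatase, averaged 7.48 ± 1.35 CPM in LPS and 33.8 ± 2.92 CPM in control libraries (log2 fold change -2.18, SE 0.19, adjusted p = 2.8e-08). Cers4, a ceramide synthase, rose (1.38, SE 0.14), and the rise of the lysosomal glycosidase Gla (1.24, SE 0.13) was not called with library size scaling. Glycosyltransferases and sulfotransferases had shares close to the background. The test covered 34 of 40 listed members, and 12 (35.3%) were called higher and 13 (38.2%) lower. With TMM the median log2 fold change was -0.32, with library size scaling -1.21 and with the length trend removed 0.004. The sialyltransferases moved both ways, with St3gal1 at 194.9 ± 24.1 CPM in LPS and 47.96 ± 4.48 CPM in control libraries (log2 fold change 2.02, SE 0.24, adjusted p = 9.9e-07) and St8sia4 at 33.7 ± 8.38 CPM in LPS and 117 ± 10.8 CPM in control libraries (log2 fold change -1.80, SE 0.19, adjusted p = 2.66e-07), whose fall was not called with the length trend removed (-0.40, adjusted p = 0.0622). St6galnac4 (2.06, SE 0.14) and B4galt3 (2.06, SE 0.15) rose, and Chst3 (-2.58, SE 0.36) and Mgat2 (-1.86, SE 0.22) fell.

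Genes of mitochondrial import, dynamics and nucleoids had a larger share of rises than the background with TMM. Out of 36 listed members 35 were tested, of which 20 (57.1%) were called higher and 10 (28.6%) lower. For these members the median log2 fold change was 0.57 (TMM), -0.33 (library size scaling) and 0.48 (length trend removed). Timm8b, a small chaperone of the import machinery, averaged 249 ± 47.2 CPM in LPS and 46.8 ± 7.16 CPM in control libraries (log2 fold change 2.41, SE 0.31, adjusted p = 2.46e-06), Clpp, a matrix protease, averaged 72.9 ± 2.28 CPM in LPS and 17.7 ± 2.50 CPM in control libraries (log2 fold change 2.05, SE 0.14, adjusted p = 1.54e-09), and Chchd2 averaged 602 ± 133 CPM in LPS and 147 ± 26.1 CPM in control libraries (log2 fold change 2.03, SE 0.28, adjusted p = 5.21e-06). Among members with a log2 CPM of 3 or more on average, the largest falls were those of Twnk, Polg and Mfn1. Twnk, the helicase of mitochondrial DNA, had 4.35, 2.92, 4.63 and 4.80 CPM in the LPS libraries, against 38.8, 37.1, 36.5 and 36.03 CPM in the control libraries (log2 fold change -3.15, SE 0.21, adjusted p = 1.16e-09), and Polg, its polymerase, had 12.4, 8.84, 8.18 and 14.2 CPM in the LPS libraries, against 33.9, 32.4, 33.8 and 30.9 CPM in the control libraries (log2 fold change -1.59, SE 0.17, adjusted p = 4.32e-07). Mfn1, a fusion GTPase, averaged 8.66 ± 0.806 CPM in LPS and 20.96 ± 3.361 CPM in control libraries (log2 fold change -1.28, SE 0.17, adjusted p = 3.12e-06). Translation initiation and elongation factors did so as well. With 36 of 36 members tested, 22 (61.1%) were called higher and 11 (30.6%) lower. Under TMM, library size scaling and removal of the length trend, the median log2 fold change was 0.75, -0.15 and 0.93. The 2 paralogous inhibitors of the cap-binding protein eIF4E went opposite ways: Eif4ebp1 had 415, 369, 354 and 382 CPM in the LPS libraries, against 53.003, 64.6, 60.8 and 53.6 CPM in the control libraries (log2 fold change 2.71, SE 0.14, adjusted p = 4.47e-11), and Eif4ebp2 had 23.5, 19.2, 23.8 and 36.2 CPM in the LPS libraries, against 174, 161, 165 and 164 CPM in the control libraries (log2 fold change -2.69, SE 0.23, adjusted p = 1.93e-08). Eif1, of start codon selection, averaged 1119.8 ± 49.5 CPM in LPS and 208 ± 6.35 CPM in control libraries (log2 fold change 2.43, SE 0.13, adjusted p = 5.85e-11), and Eif6, of the large subunit, averaged 211 ± 33.2 CPM in LPS and 42.8 ± 5.23 CPM in control libraries (log2 fold change 2.30, SE 0.19, adjusted p = 1.56e-08). Eif4g1, the scaffold of the cap complex, fell (-1.04, SE 0.19), and the fall of Eif3a (-1.07, SE 0.16) was not called with the length trend removed (-0.32, adjusted p = 0.104).

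E3 ubiquitin ligases of the TRIM, RNF and MARCH families had a share of falls near the background and a smaller share of rises. Tests were possible for 37 of 42 members, and 10 (27%) were called higher and 14 (37.8%) lower. Taking the median over the list, the log2 fold change was -0.17 with TMM, -1.07 with library size scaling and 0.23 with the length trend removed. Rnf19b averaged 112 ± 13.9 CPM in LPS and 20.8 ± 1.73 CPM in control libraries (log2 fold change 2.43, SE 0.14, adjusted p = 2.19e-10), and Rnf114 (2.07, SE 0.17) and the mitochondrial ligase Marchf5 (1.53, SE 0.12) rose too. Trim37 averaged 10.4 ± 0.987 CPM in LPS and 62.6 ± 4.45 CPM in control libraries (log2 fold change -2.59, SE 0.18, adjusted p = 1.55e-09), with smaller falls of Trim33 (-1.78, SE 0.18) and Trim56 (-1.71, SE 0.18).

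Each of the 7 lists of nuclear genes had a larger share of falls than the background. Their median gene length ran from 4484 bases in the KLF list to 8443 in the chromatin list. Of all genes tested, 47.3% were called lower at 4000 to 8000 bases and 64.2% from 8000 bases. The shares of the chromatin list (63.2%) and the nuclear pore list (48.6%) lay near these values. Those of the KLF (63.4%), nuclear receptor (55.2%), clock (66.7%), miRNA (60.7%) and repair (70.3%) lists lay above the 47.3%. Median lengths in these lists were 4484 to 6397 bases. What part length plays in any of these shares was not tested. Transcription factors of the KLF, EGR, ETS, C/EBP and related families set myeloid programmes. Of the 41 members tested out of 43 listed, 12 (29.3%) were called higher and 26 (63.4%) lower. Here the median log2 fold change was -0.83 with TMM, -1.72 with library size scaling and -0.19 with the length trend removed. The C/EBP factors Cebpb and Cebpd rose: Cebpb had 173, 118, 104 and 123 CPM in the LPS libraries, against 16.1, 22.1, 20.1 and 19.6 CPM in the control libraries (log2 fold change 2.73, SE 0.21, adjusted p = 7.47e-09), and Cebpd averaged 61.8 ± 19.7 CPM in LPS and 11.1 ± 1.87 CPM in control libraries (log2 fold change 2.47, SE 0.32, adjusted p = 2.95e-06). Maff, a small MAF factor, averaged 59.2 ± 5.95 CPM in LPS and 6.37 ± 0.861 CPM in control libraries (log2 fold change 3.21, SE 0.15, adjusted p = 9.82e-12). Klf10 had 2.90, 2.44, 3.12 and 3.10 CPM in the LPS libraries, against 42.97, 37.9, 41.3 and 41.7 CPM in the control libraries (log2 fold change -3.82, SE 0.16, adjusted p = 3.9e-12), and the ETS factors Elf1 (-2.58, SE 0.42) and Fli1 (-1.86, SE 0.18) fell. Nuclear receptors and their partners bind steroids, retinoids and lipids. Among 29 tested of 32 listed members, 7 (24.1%) were called higher and 16 (55.2%) lower. The list had a median log2 fold change of -0.92 with TMM, -1.80 with library size scaling and -0.25 with the length trend removed. Nr3c1, the glucocorticoid receptor, had 8.38, 13.6, 10.9 and 11.1 CPM in the LPS libraries, against 31.9, 27.3, 30.1 and 37.1 CPM in the control libraries (log2 fold change -1.52, SE 0.20, adjusted p = 4.35e-06). Ncoa4, a coactivator and the receptor for ferritin autophagy, averaged 7.90 ± 2.44 CPM in LPS and 54.4 ± 3.93 CPM in control libraries (log2 fold change -2.78, SE 0.25, adjusted p = 4.78e-08), and Nr2c2 averaged 4.86 ± 1.63 CPM in LPS and 21.98 ± 3.43 CPM in control libraries (log2 fold change -2.17, SE 0.22, adjusted p = 1.63e-07). Esrra, an orphan receptor of mitochondrial genes, rose at 146 ± 31.1 CPM in LPS and 37.6 ± 4.73 CPM in control libraries (log2 fold change 1.96, SE 0.18, adjusted p = 6.11e-08), while the smaller rises of Rarg (0.77, SE 0.15) and Nr1d1 (0.62, SE 0.18) turned to -0.12 and -0.27 with library size scaling. Each circadian clock gene tested was called in 1 direction or the other. The test covered 18 of 22 listed members, and 6 (33.3%) were called higher and 12 (66.7%) lower. With TMM the median log2 fold change was -1.20, with library size scaling -2.09 and with the length trend removed -0.65. Clock, the activator, averaged 4.81 ± 1.62 CPM in LPS and 18.5 ± 1.336 CPM in control libraries (log2 fold change -1.94, SE 0.21, adjusted p = 3.69e-07), and the repressor Bhlhe41 averaged 18.2 ± 4.08 CPM in LPS and 54.9 ± 2.18 CPM in control libraries (log2 fold change -1.59, SE 0.19, adjusted p = 1.43e-06). Nfil3, a repressor, had 94.001, 78.5, 104 and 90.4 CPM in the LPS libraries, against 12.3, 14.8, 14.7 and 14.5 CPM in the control libraries (log2 fold change 2.71, SE 0.18, adjusted p = 1.02e-09), and the repressor Per1 averaged 118 ± 16.9 CPM in LPS and 30.98 ± 0.511 CPM in control libraries (log2 fold change 1.93, SE 0.14, adjusted p = 2.8e-09). The rise of the kinase Csnk1e (0.88, SE 0.14) turned to -0.0190 with library size scaling.

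Chromatin enzymes and remodellers open, close and mark chromatin. Out of 58 listed members 57 were tested, of which 7 (12.3%) were called higher and 36 (63.2%) lower. For these members the median log2 fold change was -1.31 (TMM), -2.20 (library size scaling) and -0.29 (length trend removed). The gene models of this list were long, with a median of 8443 bases, and the share of genes called lower was larger among long genes. Under all 3 scalings none was called higher and 27 were called lower. Kat6a, a histone acetyltransferase, had 3.41, 6.16, 7.29 and 6.50 CPM in the LPS libraries, against 62.8, 51.4, 59.8 and 60.7 CPM in the control libraries (log2 fold change -3.32, SE 0.20, adjusted p = 2.93e-10). Smarca2, an ATPase of the SWI/SNF remodeller, averaged 4.73 ± 0.841 CPM in LPS and 41.9 ± 4.65 CPM in control libraries (log2 fold change -3.14, SE 0.19, adjusted p = 2.34e-10), and Kmt2c, a histone H3 methyltransferase of enhancers, averaged 7.01 ± 0.910 CPM in LPS and 54.6 ± 8.92 CPM in control libraries (log2 fold change -2.96, SE 0.19, adjusted p = 6.69e-10). Kdm6b, the H3K27 demethylase induced in macrophages, averaged 34.2 ± 3.67 CPM in LPS and 14.4 ± 1.41 CPM in control libraries (log2 fold change 1.25, SE 0.21, adjusted p = 5.08e-05). Its rise and those of Dot1l (1.25, SE 0.18) and Brd2 (1.06, SE 0.19) kept their sign but were not called with library size scaling, at 0.36, 0.35 and 0.17. Genes of DNA damage and repair had the highest share of falls. With 37 of 37 members tested, 5 (13.5%) were called higher and 26 (70.3%) lower. Under TMM, library size scaling and removal of the length trend, the median log2 fold change was -1.15, -2.05 and -0.74. Chek2, a checkpoint kinase, had 2.90, 3.41, 2.85 and 2.63 CPM in the LPS libraries, against 24.3, 21.9, 23.8 and 22.1 CPM in the control libraries (log2 fold change -2.97, SE 0.20, adjusted p = 1.1e-09), and Atrx, a remodeller of repetitive DNA, averaged 10.998 ± 2.47 CPM in LPS and 62.02 ± 6.71 CPM in control libraries (log2 fold change -2.50, SE 0.24, adjusted p = 8.05e-08). The stress sensor Gadd45b had 718, 698, 733 and 744 CPM in the LPS libraries, against 9.65, 7.65, 8.75 and 8.93 CPM in the control libraries (log2 fold change 6.37, SE 0.17, adjusted p = 1.86e-14). Ogg1, which removes oxidised guanine, averaged 56.7 ± 5.47 CPM in LPS and 17.6 ± 1.47 CPM in control libraries (log2 fold change 1.69, SE 0.15, adjusted p = 2.3e-08), and the rise of Nthl1 (0.86, SE 0.17), another base excision enzyme, turned to -0.0406 with library size scaling. Under all 3 scalings the repair list had 4 higher and 22 lower.

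miRNA pathway proteins and long noncoding RNAs were listed together. Tests were possible for 28 of 35 members, and 11 (39.3%) were called higher and 17 (60.7%) lower. Taking the median over the list, the log2 fold change was -1.36 with TMM, -2.24 with library size scaling and -0.14 with the length trend removed. Dicer1, which cuts miRNA precursors, had 2.76, 3.79, 2.97 and 1.95 CPM in the LPS libraries, against 43.1, 32.6, 39.3 and 39.2 CPM in the control libraries (log2 fold change -3.75, SE 0.31, adjusted p = 1.66e-08), and Tnrc6b, a scaffold of miRNA silencing, averaged 7.25 ± 1.63 CPM in LPS and 46.2 ± 4.92 CPM in control libraries (log2 fold change -2.67, SE 0.22, adjusted p = 1.14e-08). Norad, a long noncoding RNA that binds Pumilio proteins, averaged 8.18 ± 0.912 CPM in LPS and 94.2 ± 9.94 CPM in control libraries (log2 fold change -3.52, SE 0.16, adjusted p = 1.02e-11). The hosts of small nucleolar RNAs Snhg12, Snhg1 and Gas5 rose: Gas5 had 213, 256, 202 and 200.2 CPM in the LPS libraries, against 32.995, 41.9, 42.03 and 31.6 CPM in the control libraries (log2 fold change 2.55, SE 0.17, adjusted p = 1.27e-09), Snhg1 averaged 207 ± 42.7 CPM in LPS and 22.8 ± 3.72 CPM in control libraries (log2 fold change 3.18, SE 0.27, adjusted p = 1.68e-08), and Snhg12 averaged 63.9 ± 2.31 CPM in LPS and 5.94 ± 0.637 CPM in control libraries (log2 fold change 3.43, SE 0.13, adjusted p = 1.41e-12). Nuclear pore and transport genes changed little in size on the rising side. Of the 37 members tested out of 37 listed, 5 (13.5%) were called higher and 18 (48.6%) lower. Here the median log2 fold change was -0.27 with TMM, -1.18 with library size scaling and 0.13 with the length trend removed. No rise reached 2-fold, and 14 falls did. The median length of these genes was 6729 bases, and with the length trend removed 16 were called higher and 14 lower. Kpna2, an importin alpha of dividing cells, had 31.9, 38.8, 44.95 and 30.9 CPM in the LPS libraries, against 158, 184, 170.01 and 182 CPM in the control libraries (log2 fold change -2.24, SE 0.15, adjusted p = 1.21e-09). Nup133 averaged 3.87 ± 0.887 CPM in LPS and 21.7 ± 1.70 CPM in control libraries (log2 fold change -2.49, SE 0.18, adjusted p = 3.46e-09) and Nup214 averaged 12.3 ± 2.23 CPM in LPS and 56.5 ± 6.59 CPM in control libraries (log2 fold change -2.20, SE 0.20, adjusted p = 3.98e-08). The rises of Nup62 (0.85, SE 0.12), Nup43 (0.82, SE 0.19) and Kpna4 (0.74, SE 0.22) turned to -0.0450, -0.0799 and -0.16 with library size scaling.

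Across the 32 lists, the median was above 0 under all 3 scalings in 3 lists (extracellular matrix, surface glycoproteins and reference genes) and below 0 under all 3 in 10. The 10 were glucose and other transporters, sphingolipid enzymes, nucleotide and NAD metabolism, KLF and related transcription factors, nuclear receptors, axon guidance, DNA repair, clock genes, chromatin enzymes, and miRNA pathway genes with long noncoding RNAs. In the other 19 lists the sign of the median depended on the scaling. Over all genes tested the median was -0.10 with TMM, -0.99 with library size scaling and 0.04 with the length trend removed. Library size scaling thus lowers list medians, and a list below 0 with TMM tends to stay there. The counts of 3 and 10 lists therefore do not show that more lists fell than rose.

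**Figure D4:**
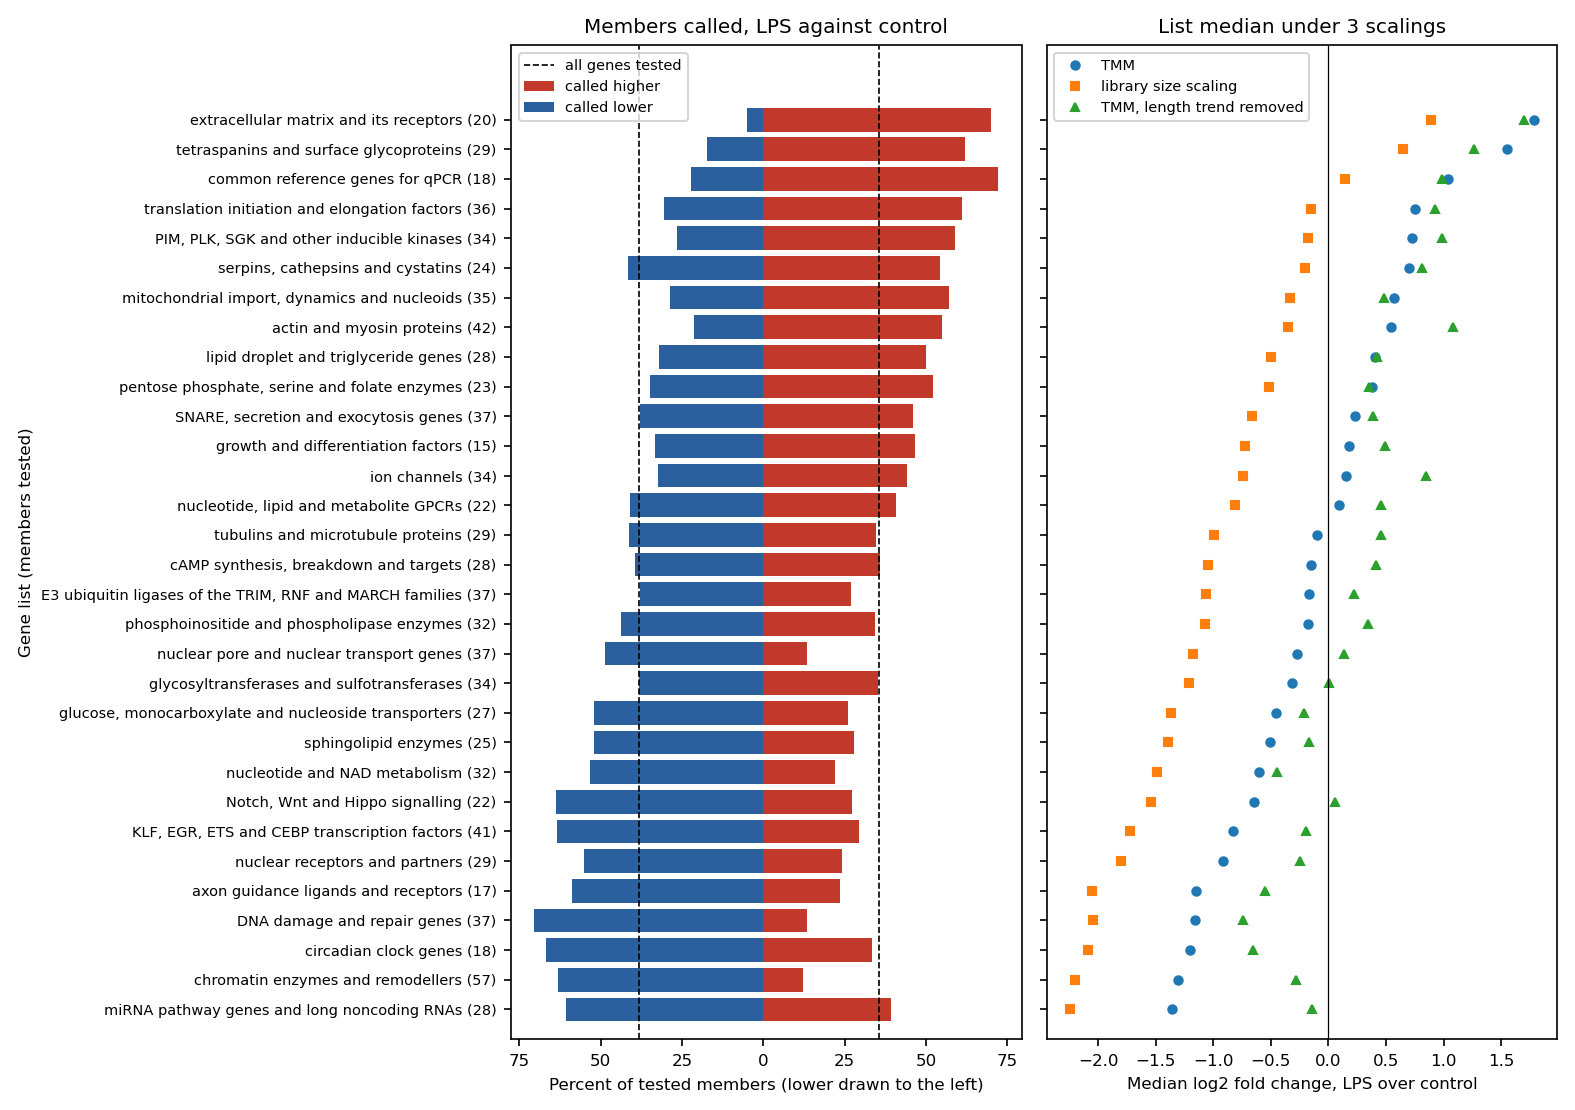
Left, percent of the tested members of each gene list shown called higher (red, right) or lower (blue, left) with LPS, with dashed lines at the 35.6% and 38.3% of all genes tested. Right, each list's median log2 fold change (LPS over control) with TMM, with library size scaling and with the length trend removed; medians are lower with library size scaling in every list shown, and the extracellular matrix list stays above 0 under all 3.

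Calls were also counted by level and by gene length, across genes, which are not independent replicates. Of the 12 libraries averaged for the level, 8 received LPS, 4 of them with ferulic acid, so a gene raised by LPS moves into a higher bin and a lowered gene into a lower one, and no relation of level to direction is read from these bins. Among the 459 genes whose log2 CPM averaged 8 or more over all 12 libraries, 82.6% were called higher and 7.41% lower, while among the 2977 genes under 0 the shares were 22.9% and 36.2%. Among the 3100 genes between 2 and 4, 25.9% were higher and 51.6% lower. Length here is the length in bases implied by the deposited counts and FPKM. Of 1506 genes under 1000 bases, 61.9% were higher and 9.23% lower, with a median log2 fold change of 1.41. Of 2055 genes of at least 8000 bases, 15.4% were higher and 64.2% lower, with a median of -1.01. The bins between fell in order, with medians of 0.60 for 1000 to 2000 bases, 0.10 for 2000 to 4000 and -0.42 for 4000 to 8000. The Spearman correlation of the log2 fold change with length was -0.349 over the 14065 genes. What part length plays in any list's direction was not tested; the medians with the length trend removed stand beside each list.

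**Figure D5:**
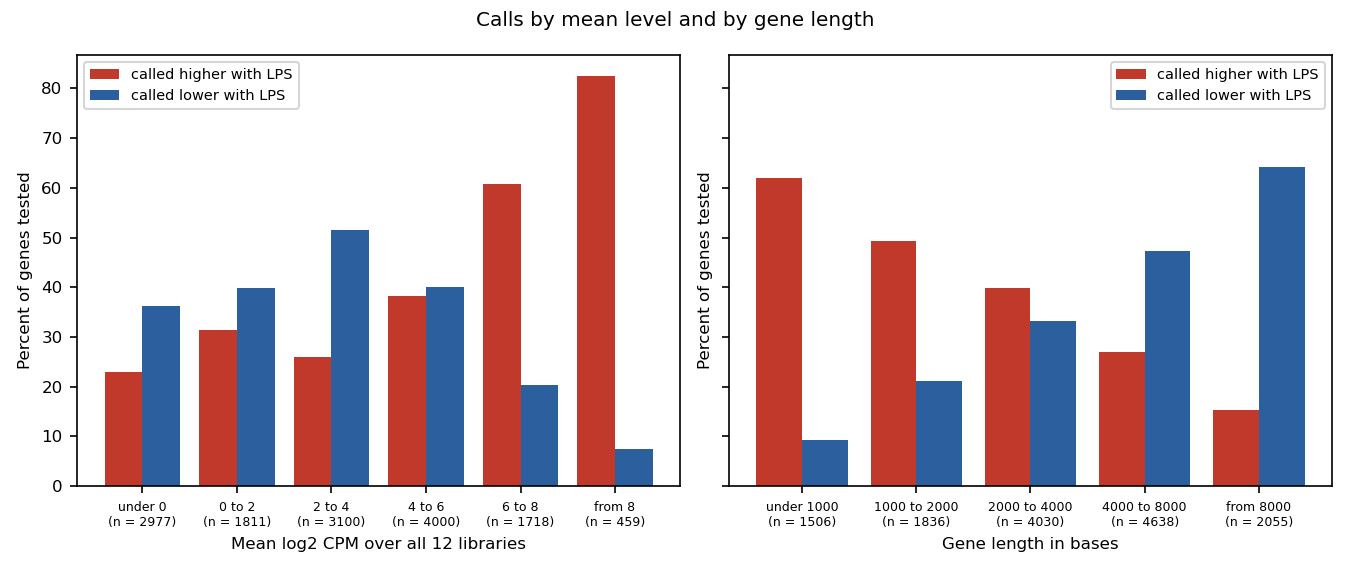
Percent of genes called higher (red) and lower (blue) with LPS in bins of the mean log2 CPM over all 12 libraries (left, 8 of them with LPS, so a gene's change also moves its bin) and of gene length in bases (right), with the number of genes in each bin. The share called higher runs from 61.9% under 1000 bases to 15.4% from 8000 bases.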

How the data were processed

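RNA was isolated with TRIzol and mRNA selected on oligo-dT beads, per the labels' protocols. The submitters' processing notes name genome build GRCm39 and, without roles, featureCounts 2.0.6, HISAT2 2.2.1, fastp 0.23.4, edgeR 3.36.0 and DESeq2 1.34.0; strand and annotation are not given in the sources used here. The authors deposited whole-number read counts and FPKM per gene and library, per the file headers. Gene length was implied by the deposited counts and FPKM.

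Counts were tested with edgeR 4.0.16 in R 4.3.3 by the quasi-likelihood F test, with TMM normalization, filterByExpr, group as the only term and all 12 libraries in 1 fit. Genes with a Benjamini-Hochberg adjusted p under 0.05 over 14065 genes were called, and SE was taken as log2 fold change over the root of the F statistic. The code was tested on simulated data in which 200 of 14065 genes changed, equally in both directions. That setting has far fewer changed genes than these data and cannot test the choice of scaling. Alternatives used DESeq2 1.42.0 and limma 3.58.1 on log2(FPKM + 1) and log2(FPKM + 0.1).

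Named genes were, per direction, the 12 with the largest change (log2 CPM of 3 or more on average, no overlap, well covered genes, Gm and Rik symbols left out), the 8 with the largest gain or loss in mean CPM, the 6 least changed (log2 CPM of 7 or more on average), all reference genes, and up to 3 rises and 3 falls per list (log2 CPM of 3 or more on average). Genes and the 32 lists were chosen with earlier results of these data known. Promoters came from RefSeq's table of build GRCm38.p6, not the build of the counts, and 68.6% of tested genes matched, so a comparison of motif shares between classes of genes was void. Some named genes and 1 list are not reported here.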

Additional observations from a re-analysis of the deposited data

Results flagged for a closer look

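Of 470 groups of 4 libraries examined, 18 had 1 library whose gap to the nearest other, divided by the group's range, exceeded Dixon's 95% critical value. Chance alone flags about 1 group in 20. LPS library 1 accounted for 6 of the 18, LPS library 4 for 5 and LPS library 3 for 3.

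In LPS library 1, Fxyd2 was at 829 CPM (628 to 660 in the other 3 LPS libraries), Pim2 at 107 CPM (85.4 to 88.1), Rhoc at 1080 CPM (926 to 951) and Tmsb10 at 1060 CPM (919 to 940). In the same library Gla was at 73.5 CPM (93.5 to 94.8), and genes higher by at least 16-fold held 13.1% of the reads (13.7% to 13.8%). In LPS library 2, Hdc was at 205 CPM (233 to 234). In LPS library 3, Btk was at 19.0 CPM (13.1 to 13.5), Prps2 at 16.7 CPM (12.8 to 13.4) and Igfbp4 at 5.40 CPM (7.13 to 7.47).

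In LPS library 4, Arhgap17 was at 19.0 CPM (13.1 to 13.6), Dido1 at 2.71 CPM (1.60 to 1.74), Pip5k1c at 30.5 CPM (22.3 to 23.3), Rab7b at 3.46 CPM (2.21 to 2.37) and Slc29a3 at 7.35 CPM (5.13 to 5.36). In control library 1, Nfil3 was at 12.3 CPM (14.5 to 14.8). In control library 3, Csnk1e was at 30.0 CPM (28.4 to 28.6). In control library 4, Ctsf was at 71.3 CPM (81.4 to 82.5). None of these gaps closed the distance to the other group.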

How the results depend on the processing

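Leaving out each library in turn gave 9945 to 10210 calls, with 4789 to 4898 higher, 5141 to 5322 lower, 3390 to 3496 higher by at least 2-fold and 3830 to 4026 lower by at least 2-fold, and each of the 233 named genes kept its call. With library size scaling, limma on log2(FPKM + 1) and limma on log2(FPKM + 0.1), 2467, 2531 and 2565 genes were higher and 8305, 8544 and 8521 lower. By at least 2-fold these settings gave 1559, 969 and 1488 higher, and library size scaling and log2(FPKM + 0.1) gave 6772 and 6554 lower. The filter of 10 CPM in 4 libraries kept 8904 genes and gave 2110 higher and 2414 lower by at least 2-fold, from fewer genes tested. With calls from library size scaling, genes called higher held 57.9% of LPS and 22.9% of control reads, and genes called lower 18.8% of LPS and 54.0% of control reads. In the order library size scaling, log2(FPKM + 1) and log2(FPKM + 0.1), log2 fold changes turned negative for Actb (-0.33, -0.33, -0.33), Csnk1e (-0.0190, -0.0188, -0.0218), Eef1a1 (-0.12, -0.12, -0.12), Gusb (-0.72, -0.72, -0.73), Hprt (-0.15, -0.15, -0.15), Kcnab2 (-0.90, -0.86, -0.89), Kpna4 (-0.16, -0.15, -0.18), Nr1d1 (-0.27, -0.21, -0.27), Nthl1 (-0.0406, -0.0304, -0.0350), Nup43 (-0.0799, -0.0721, -0.0830), Nup62 (-0.0450, -0.0445, -0.0452), P2ry6 (-0.0707, -0.0671, -0.0704) and Rarg (-0.12, -0.11, -0.13). With the length trend removed they turned positive for Ipo5 (0.50), Rtn4 (0.57), Skap2 (0.95) and Tbp (0.32). Library size scaling leaves out the TMM factors, and no TMM factors were applied to the FPKM values. The FPKM settings are therefore not checks independent of library size scaling. Why the TMM factors and the length trend differ between the groups was not tested. With the replicate block 10041 genes were called, 4810 higher and 5231 lower, and no named gene changed its call; same-numbered libraries correlated at -0.307, -0.103, -0.180 and -0.137 after group means were removed, so the numbers were not taken to pair the libraries. With DESeq2 10541 genes were called and 15 had no adjusted p. A fit of the 8 libraries alone tested 13681 genes and called 11042, 5202 higher and 5840 lower. Motif shares by class of fold change were not run. With 4 libraries per group an exact permutation test cannot go below p = 0.0286.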
